A study of Caenorhabditis elegans with 2 samples.

Results

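The cytosolic ribosomal protein genes of Caenorhabditis elegans were taken as the protein-coding genes of the WBcel235 annotation (Ensembl release 115) whose symbol is rpl- or rps- followed by a number, together with rla-0, rla-1 and rla-2. This rule gave 81 of 19985 protein-coding genes. By symbol, 50 were counted as large-subunit genes (47 rpl- genes and the 3 rla- genes of the stalk) and 31 as small-subunit genes (rps-). Beyond the symbol, it was not checked that each product is part of the ribosome. The rule used no measured value. The 70 mitochondrial ribosomal protein genes (mrpl- and mrps-) served only for comparison.

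Cytosolic ribosomes translate all messenger RNAs of the nuclear genome. The small subunit decodes the message, the large subunit forms the peptide bond, and the P proteins of the stalk recruit the GTPases of translation. Ribosomal protein genes are transcribed at high levels in every growing cell, and their products are needed in matched amounts. Mitochondrial ribosomal proteins are also encoded in the nucleus but serve a separate ribosome that translates the messages of the mitochondrial genome.

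The series is a ChIP-seq study (sequencing of DNA recovered with a protein by immunoprecipitation) of ELT-1, a GATA transcription factor that specifies epidermis, carrying an eGFP tag, in L3 larvae of mixed sex taken whole. Both samples came from strain OP354, which carries the mutation unc-119(tm4063) on chromosome III and the transgene wgIs354, and the labels call them biological replicates 1 and 2 of a single group. Tagged ELT-1 from the transgene was therefore measured in all samples, over all tissues at once, so no peak can be assigned to a cell type, and the source of the transgene's expression is not given in the sources used here. The fragment size range was 150 to 350 bp, and a control that entered the peak calls was not analysed here.

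Relaxed lists of 29029 regions (replicate 1), 30000 regions (replicate 2) and 30000 regions (both pooled) were deposited with a list of 1910 IDR peaks. IDR, the irreproducible discovery rate, scores whether a peak keeps its rank from one replicate to the other. The 1910 IDR peaks were the 1910 strongest of the pooled list, with signals of 27.7 to 1900 and a median of 40.8. Signal is the authors' own value per peak, on a scale that the sources used here do not give, and it is compared only within 1 list. Read depth is unknown. A gene was counted as having a summit when the highest point of a peak lay from 1000 bp upstream to 200 bp downstream of an annotated protein-coding transcript start of that gene. With 1 group and a gene set chosen with earlier results of these data known, no test was run: counts are given beside the same count over all protein-coding genes.

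The DNA under the summits is shown first, because the sequences carry the positional and motif results below. Each line gives 101 bases, 50 on either side of an IDR summit, 5′ to 3′ on the strand of the gene, with ce11 coordinates. The bases were read from the WBcel235 genome sequence of RefSeq. The first 3 are from the 3 strongest peaks of the set, the next 6 are further peaks with a 7-mer, and the last 2 hold a GATA site. Capitals mark either of these motifs, in either orientation. The 7-mers are ACACTCG and CGCTACG and ACCGTAG, and they were picked after the sequences under the peaks had been compared. The GATA sites are AGATAA or AGATAG or TGATAA or TGATAG.
rpl-3, chrIII:3867534-3867634, plus strand: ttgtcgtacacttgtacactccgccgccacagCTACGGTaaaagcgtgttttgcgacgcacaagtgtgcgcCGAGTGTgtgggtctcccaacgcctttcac
rpl-20, chrIV:4750008-4750108, minus strand: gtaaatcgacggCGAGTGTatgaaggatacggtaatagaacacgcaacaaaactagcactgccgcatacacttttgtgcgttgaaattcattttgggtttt
rpl-35, chrIII:7854638-7854738, plus strand: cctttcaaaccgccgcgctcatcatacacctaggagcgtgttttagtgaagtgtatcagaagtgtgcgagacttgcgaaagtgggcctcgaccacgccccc
rpl-15, chrIV:654868-654968, minus strand: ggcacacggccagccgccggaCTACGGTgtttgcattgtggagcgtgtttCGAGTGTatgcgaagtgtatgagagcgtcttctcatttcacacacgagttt
rps-1, chrIII:4475603-4475703, plus strand: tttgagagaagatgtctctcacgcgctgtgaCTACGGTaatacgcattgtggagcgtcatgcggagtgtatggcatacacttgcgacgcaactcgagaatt
rpl-11.2, chrX:2242955-2243055, minus strand: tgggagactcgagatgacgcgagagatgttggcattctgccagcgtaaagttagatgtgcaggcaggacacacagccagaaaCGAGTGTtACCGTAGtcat
rpl-22, chrII:5055347-5055447, plus strand: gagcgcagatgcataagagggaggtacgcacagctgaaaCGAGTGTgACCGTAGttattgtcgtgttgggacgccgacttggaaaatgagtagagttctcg
rpl-36, chrIII:7179828-7179928, plus strand: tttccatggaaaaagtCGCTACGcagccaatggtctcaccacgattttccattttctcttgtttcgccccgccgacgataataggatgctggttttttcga
rpl-29, chrIV:13881901-13882001, plus strand: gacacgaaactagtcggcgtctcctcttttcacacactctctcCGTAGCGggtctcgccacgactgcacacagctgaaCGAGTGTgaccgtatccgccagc
rpl-39, chrV:7776375-7776475, minus strand: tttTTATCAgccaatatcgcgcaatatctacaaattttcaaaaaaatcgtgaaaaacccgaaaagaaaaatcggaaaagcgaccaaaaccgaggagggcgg
rpl-7A, chrIV:4390591-4390691, minus strand: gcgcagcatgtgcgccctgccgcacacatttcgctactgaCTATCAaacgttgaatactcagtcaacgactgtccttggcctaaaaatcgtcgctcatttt
The window of the strongest peak (rpl-3) held 2 of the 7-mers and no GATA site, that of rpl-35 held neither kind of motif, and those of rpl-39 and rpl-7A held a GATA site and no 7-mer.

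An IDR summit lay at 34 of the 81 cytosolic ribosomal protein genes (42%), against 5.03% of all protein-coding genes. In a separate count, each IDR summit went to the gene with the nearest start, at any distance and with no window. That count was 22 genes (27.2%, against 7.72%), which need not all be among the 34. The genes shared some peaks, so the 34 genes had 31 distinct peaks, and each gene had 1 IDR summit. In the pooled list, which also holds weak regions, 75 of the 81 genes had a summit (92.6%, against 41.2% of all protein-coding genes). Among genes with a pooled summit, the share that reached the IDR list was 34 of 75 (45.3%), against 12.2% of all such genes. Large-subunit genes had an IDR summit in 20 of 50 cases (40%) and small-subunit genes in 14 of 31 (45.2%).

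Each replicate gave a similar picture on its own. Replicate 1 had a summit at 64 of the 81 genes (79%, against 39.7% of all protein-coding genes). Replicate 2 had one at 77 (95.1%, against 41.5%). Among the 1910 strongest regions of replicate 1, 27 of the 81 genes had a summit (33.3%, against 4.59%). Among the 1910 strongest regions of replicate 2, the count was 31 (38.3%, against 5.03%). A summit among the strongest 1910 regions of both replicates was found at 19 of the 81 genes (23.5%, against 2.89% of all protein-coding genes), of which 11 were large-subunit and 8 small-subunit genes.

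The share of genes rose along the whole ranked lists. Within the 250 strongest regions, summits lay at 7.41% of the cytosolic ribosomal protein genes in replicate 1 and 12.3% in replicate 2, against 0.512% and 0.538% of the other protein-coding genes. Within the 8000 strongest, the shares were 60.5% and 81.5%, against 15.3% and 17%. Mitochondrial ribosomal protein genes had no summit within the 500 strongest regions of either replicate, where the other protein-coding genes had shares of 1.06% and 1.11%, and a count of 0 among 70 genes is close to such shares. At 8000 regions the mitochondrial shares were 20% in replicate 1 and 32.9% in replicate 2. At every depth plotted, the cytosolic set lay above the mitochondrial set and above all other protein-coding genes in both replicates.

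**Figure D1:**
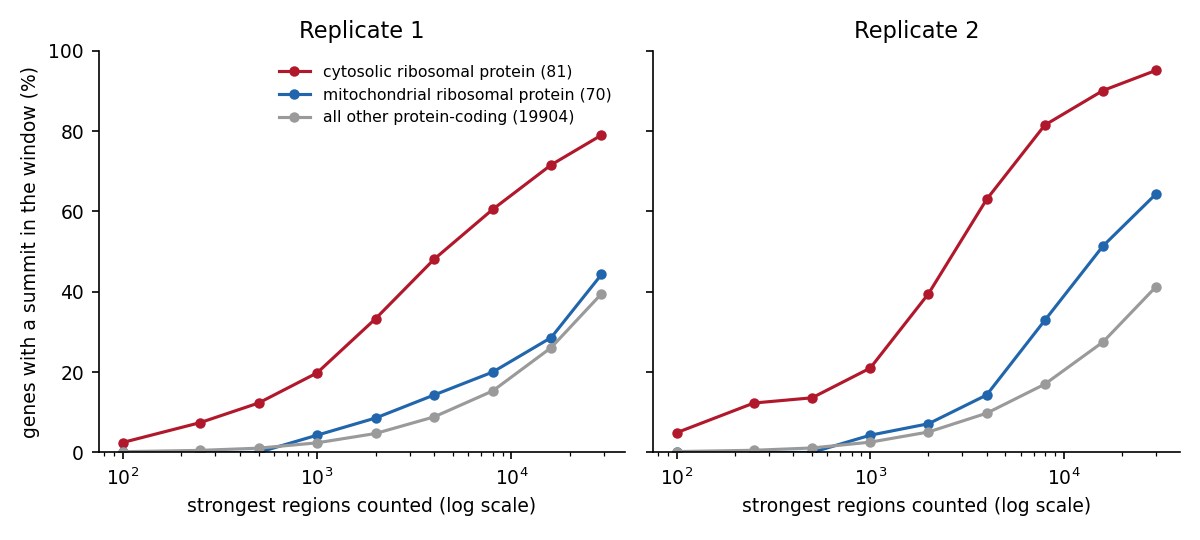
Share of genes with a summit from 1000 bp upstream to 200 bp downstream of a start (y axis, %) as more of the strongest regions are counted (x axis, log scale), for replicate 1 (left) and replicate 2 (right). Lines stand for the 81 cytosolic ribosomal protein genes, the 70 mitochondrial ones and the other 19904 protein-coding genes; at 8000 regions the cytosolic share was 60.5% in replicate 1 and 81.5% in replicate 2.

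Other genes of the translation machinery differed in their shares. Of the 70 mitochondrial ribosomal protein genes, 4 had an IDR summit (5.71%, close to the 5.03% of all protein-coding genes): mrps-7 with a signal of 51.4, mrpl-45 with 45.2, mrpl-37 with 41.4 and mrpl-28 with 30.7. Of the 31 translation initiation and elongation factor genes (eif- and eef-), 7 had one (22.6%), with signals from 33.2 at eif-3.J to 53.4 at eef-1A.1, which encodes elongation factor 1 alpha. Of 12 genes for nucleolar proteins and RNA polymerase I subunits (nol-, fib-1 and rpoa-), 2 had one (16.7%), namely fib-1, the rRNA methyltransferase fibrillarin, with a signal of 32.5, and nol-58 with 27.7. All 13 of these peaks were weaker than the peak of rps-28, the 11th strongest of the cytosolic ribosomal protein genes, which had a signal of 61.5.

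The strongest peak of the set lay at rpl-3, whose protein lies near the peptidyl transferase centre. It spanned chrIII:3867457-3867695, had a signal of 227 and was number 33 of the 1910 IDR peaks. It ranked 36 in replicate 1 and 27 in replicate 2, and its summit lay at -270 bp (negative values are upstream of the start). Both replicates thus placed it at percentile 99.9 of their regions, where 100 is the strongest.

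Other large-subunit genes followed. The peak of rpl-20 (chrIV:4749978-4750189) had a signal of 158 and ranks 67 in replicate 1 and 60 in replicate 2. The peak of rpl-35, whose protein lies near the exit of the nascent peptide tunnel, had a signal of 143 and ranks 101 and 56 (chrIII:7854599-7854779). The peak of rpl-15 (chrIV:654852-655009) had a signal of 103 and ranks 209 and 119. These ranks all lay within the top 1% of both replicate lists.

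The peaks of rpl-11.2 and rpl-12 differed more between replicates. At rpl-11.2, whose protein binds the 5S rRNA particle with that of rpl-5, the signal was 90.3 and the ranks were 409 and 123 (chrX:2242932-2243053). At rpl-12, whose protein sits at the base of the stalk, the signal was 76.8 and the ranks were 706 and 202 (chrIV:13240606-13240755). In both cases replicate 2 ranked the peak higher, and both replicates still placed it among their 1910 strongest regions.

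Of the 10 strongest peaks, 4 were at small-subunit genes. The peak of rps-12 (chrIII:5679047-5679226) had a signal of 111 and ranks 213 in replicate 1 and 89 in replicate 2. The peak of rps-19, whose human counterpart is mutated in Diamond-Blackfan anaemia, had a signal of 98.3 and ranks 168 and 157 (chrI:9626017-9626164). The peak of rps-1 (chrIII:4475585-4475726) had a signal of 91.2 and ranks 333 and 166. These were again within the strongest 1910 regions of both replicates. The peak of rps-20 (chrI:14469279-14469403) had a signal of 80.2 and ranks 252 and 248, so for rps-19 and rps-20 the replicates gave nearly equal ranks.

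The 3 stalk genes had no IDR summit in their windows. rla-0, which encodes P0, the protein that anchors the stalk, ranked 14898 in the pooled list, 16710 in replicate 1 and 12922 in replicate 2. rla-1, which encodes P1, ranked 15092 in the pooled list and 5715 in replicate 2 and had no summit in replicate 1, and its pooled summit lay 137 bp downstream of the start. rla-2, which encodes P2, ranked 5391 in the pooled list, 27919 in replicate 1 and 8924 in replicate 2. None of the 3 was among the 5000 strongest regions of any list, whereas the peak of rpl-12, whose protein binds next to P0, was number 259 of the pooled list.

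The weaker IDR peaks of the large-subunit genes had signals from 28.3 to 43.5. In order of signal they were rpl-24.2, rpl-23, rpl-22, rpl-31, rpl-41.2, rpl-9, rpl-24.1, rpl-43, rpl-36, rpl-39, rpl-5, rpl-6, rpl-29 and rpl-7A. Among small-subunit genes the remaining IDR peaks ran from rps-28 (61.5) and rps-15 (46.5) down to rps-24 (29.2), with rps-23, rps-10, rps-14, rps-0, rps-30, rps-4 and rps-26 between them. The products of rps-26 and rps-28 line the path by which messenger RNA leaves the ribosome, and that of rps-23 forms part of the decoding centre.

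**Figure D2:**
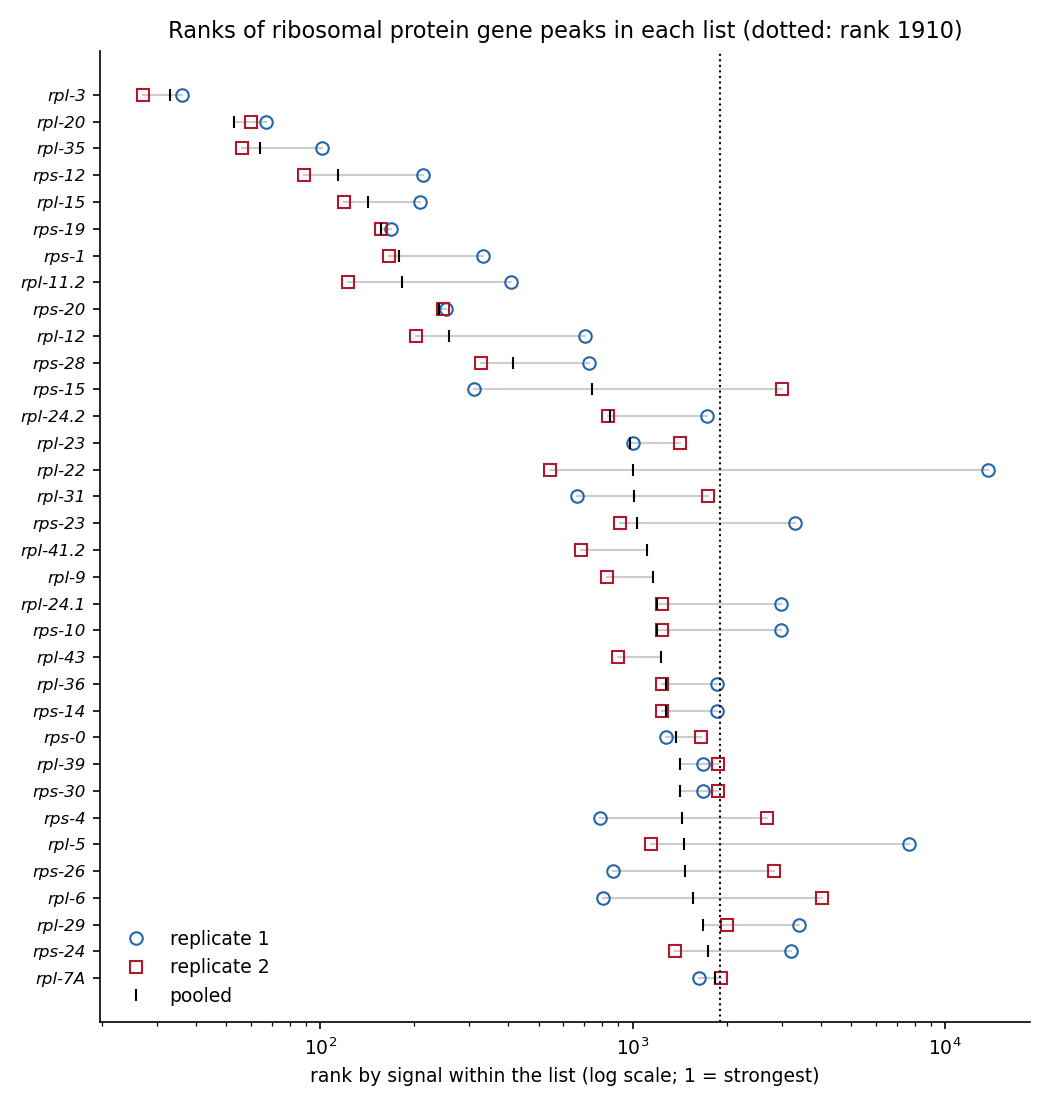
Rank of each cytosolic ribosomal protein gene's IDR peak in replicate 1 (circles), replicate 2 (squares) and the pooled list (ticks), on a log x axis where 1 is the strongest; rows are genes in order of pooled rank, and the dotted line marks rank 1910. Peaks of rpl-41.2, rpl-9 and rpl-43 have no replicate 1 point because no replicate 1 summit lay within 100 bp, and rpl-22 has the widest gap, from 544 in replicate 2 to 13668 in replicate 1.

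The 3 genes just inside the IDR list were rpl-7A with a signal of 28.3 (pooled rank 1837), rps-24 with 29.2 (1747) and rpl-29 with 29.8 (1678). The 3 just outside were rpl-1 with 27.3 (pooled rank 1949), rps-5 with 27.2 (1952) and rps-3, whose protein lines the messenger RNA entry site, with 25.4 (2176). In replicate 1 the outside genes ranked 6723, 7295 and 8652 in that order, and in replicate 2 they ranked 1524, 3448 and 1224. Their pooled signals differed by less than 5 units from those of the genes inside, so the edge of the list separates values that are close.

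Of the 47 genes without an IDR summit, 41 had a pooled summit, 3 had one in a replicate list only (rpl-25.1, rpl-37 and rps-2) and 3 had none in any list (rpl-16, rpl-42 and rps-7). The pooled ranks of the 41 ran from 1949 to 28442 with a median of 4681, and 24 of them were within the 5000 strongest. Some of these genes reached the strongest 1910 regions of 1 replicate: rpl-33 (rank 1281), rpl-19 (1654) and rpl-18 (1862) did so in replicate 1, and rps-3 (1224), rpl-1 (1524) and rps-29 (1864) did so in replicate 2. No gene without an IDR summit did so in both.

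Genes whose symbols share a number could differ, and how closely related such genes are was not checked. rpl-11.2 had pooled rank 183, while rpl-11.1, which encodes the other copy of the same protein, had pooled rank 9785 and no summit in replicate 1. rpl-41.2 had pooled rank 1112 and rpl-41.1, which lies next to it on chromosome I, had 4938. rpl-24.1 (1194) and rpl-24.2 (849) were both in the IDR list, and rpl-25.1 and rpl-25.2 (5247) were not. How reads from similar copies were placed is not given in the sources used here.

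The summits lay in a narrow band upstream of the annotated starts. Whether transcription begins at these starts was not tested. Over the 34 genes the median distance was -278 bp, with quartiles at -364 and -232 bp and a range from -746 to -35 bp. Summits between -400 and -200 bp were found at 25 of the 34 genes (73.5%), against 246 of the other 972 genes with an IDR summit (25.3%). These bounds were not set in advance and enclose the quartiles of the set itself. For those 972 genes the median was similar, at -266 bp, but the quartiles were -534 and -135 bp. The interquartile range was thus 132 bp for the ribosomal protein genes and 399 bp for the others.

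No summit of the 34 genes lay downstream of the annotated start, against 60 of the other 972 genes (6.17%). Large-subunit genes had a median of -276 bp and small-subunit genes of -292 bp, a gap smaller than the interquartile range of either (129 and 123 bp). The farthest summits were those of rpl-43 (-746 bp), rpl-35 (-446 bp), rps-28 (-439 bp) and rps-26 (-429 bp). The closest were those of rpl-12 (-35 bp) and rpl-7A (-51 bp). The rpl-43 summit lay 175 bp from the start of its neighbour Y48B6A.1, and the rps-26 summit lay 28 bp from that of tmem-107.

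**Figure D3:**
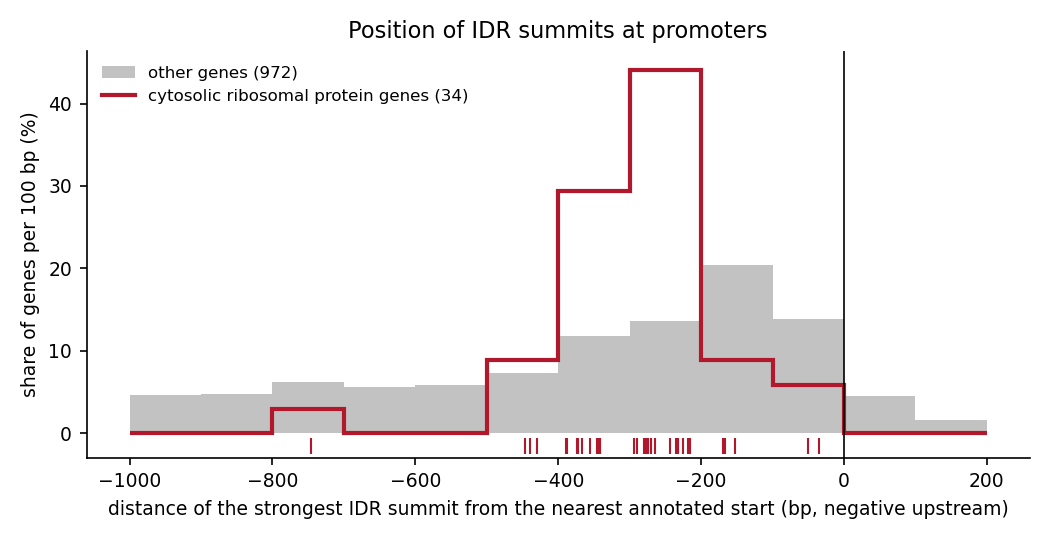
Distance of the strongest IDR summit from the nearest annotated start (x axis, bp, negative upstream) against the share of genes in each 100 bp bin (y axis, %), for the 34 cytosolic ribosomal protein genes (line, with a tick for each gene) and the other 972 protein-coding genes with an IDR summit (grey). The ribosomal protein genes pile up between -400 and -200 bp, bounds not set in advance, where 73.5% of them lie, against 25.3% of the others.

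Genes without an IDR summit had similar medians. For the 41 of them with a pooled summit, the median distance was -298 bp and the interquartile range 140 bp, against 481 bp for other genes of the pooled list. In replicate 1, the 31 of them with a summit had a median of -300 bp and an interquartile range of 217 bp, against 521 bp for the other protein-coding genes. In replicate 2, the 43 of them with a summit had a median of -282 bp and a range of 173 bp, against 496 bp. With the genes that have an IDR summit included, the range was narrower, at 151 bp over 64 genes in replicate 1 and 155 bp over 77 genes in replicate 2. The distance from the annotated start to the first coding base was taken along the genome, introns included, as the largest over a gene's transcripts. Its median was 8 bp over the 81 genes (upper quartile 20 bp) and 17 bp over the other protein-coding genes (upper quartile 75 bp). Among the 34 genes with an IDR summit this distance was at most 91 bp, at rpl-12, while it reached 642 bp at rpl-19, which has no IDR summit.

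The space upstream of these genes was short, which bounds where a summit can lie outside a neighbour. The gap to the nearest protein-coding gene lying wholly upstream had a median of 566 bp over the 81 genes and 1162 bp over the other protein-coding genes. Genes that overlap the gene itself were passed over, here and in the counts of upstream neighbours below. With only genes less than 1000 bp from the upstream gene, a bound chosen after the data were seen, the interquartile range of distance was 122 bp for 31 ribosomal protein genes and 275 bp for 449 others. With a divergent upstream neighbour as well, it was 250 bp over 292 other genes. The part of the gap in the narrow band was not tested.

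A divergent neighbour, transcribed away from the gene on the opposite strand, was upstream of 54 of the 81 genes (66.7%), against 45.3% of the other protein-coding genes. Among the ribosomal protein genes it was upstream of 26 of 34 with an IDR summit (76.5%) and of 28 of 47 without one (59.6%), and other genes with an IDR summit had one in 60.6% of cases. The gap was shorter than 200 bp at 5 of the 81 genes (6.17%, against 12% of the other protein-coding genes). None of these 5 had an IDR summit, and so short a gap was also uncommon among other genes with an IDR summit (7.31%). These 5 were rla-1, rpl-16, rpl-25.1, rpl-27 and rps-16, each with its neighbour on the same strand. An IDR summit lay at the neighbour of rla-1 (Y37E3.8, -309 bp from its start), of rpl-25.1 (glit-1, -206 bp) and of rps-16 (fib-1, -58 bp). None lay at the neighbours of rpl-16 (lias-1) and rpl-27 (C53H9.2). The peaks at these neighbours were outside the windows of the ribosomal protein genes and were not counted for them.

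Many peaks could therefore belong to a neighbour as well. Of the 31 distinct summits, 22 (71%) also lay in the window of a protein-coding gene outside the set. The nearest protein-coding start was that of a ribosomal protein gene for 21 summits and that of a neighbour for the other 10. At rps-0 the neighbour rbg-3 was 17 bp from the summit, and at rpl-31 the neighbour sac-2 was 89 bp away. At rpl-22 the distances were nearly equal, with -219 bp to rpl-22 and 218 bp to ify-1.

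Each of 3 divergent pairs made only of ribosomal protein genes shared a peak. The pair rpl-24.1 and rps-10 had a peak of signal 36.3 that lay at -243 bp of the first and -367 bp of the second. The pair rpl-36 and rps-14 had one of signal 34.9, at -373 and -290 bp. The pair rpl-39 and rps-30 had one of signal 32.8, at -346 and -153 bp. Each pair joins a large-subunit gene with a small-subunit gene, and each peak is 1 measurement counted for both.

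By the annotation, 26 of the 31 summits lay in no gene other than piRNA genes. Of the rest, 1 lay within a protein-coding gene (the rpl-24.2 summit, inside C03D6.1) and 4 lay within genes for non-coding RNA (12.9%, against 8.56% of other IDR summits in promoter windows). The only small nucleolar RNA gene within 200 bp of a summit was F39B2.14, beside the rps-26 summit, and no summit had a tRNA gene within that distance. By chromosome, IDR summits were found at 9 of 25 of the genes on chromosome I, 3 of 10 on II, 10 of 18 on III, 9 of 18 on IV, 2 of 8 on V and 1 of 2 on X. Every chromosome with these genes thus had at least 1, at shares above the 3.78% to 6.59% of all protein-coding genes by chromosome.

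Peak width split the set by strength. Most deposited peaks have a fixed width, 340 bp in the IDR and pooled lists, 336 bp in replicate 1 and 344 bp in replicate 2. Of the 31 peaks, 21 had exactly 340 bp, 10 were narrower (32.3%) and none was wider. Among the other 818 IDR peaks in promoter windows 14.3% were narrower. The 10 narrower peaks were the 10 strongest of the set and ran from 122 to 239 bp with a median of 154 bp.

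The narrowest were those of rpl-11.2 (122 bp), rps-20 (125 bp), rps-1 (142 bp) and rps-19 (148 bp), and the widest of the 10 was that of rpl-3 (239 bp). Narrow peaks were not confined to the set at that strength. Among peaks ranked 259 or better, the rank of the tenth gene's peak, 84 of the other 100 promoter peaks (84%) were narrower than 340 bp too. These 84 had a median width of 170 bp and all 100 a median of 182 bp, against 154 bp for the 10 of the set. Below that rank, none of the 21 peaks of the set was narrower, against 4.6% of other promoter peaks. This split by strength was chosen after the data were seen.

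**Figure D4:**
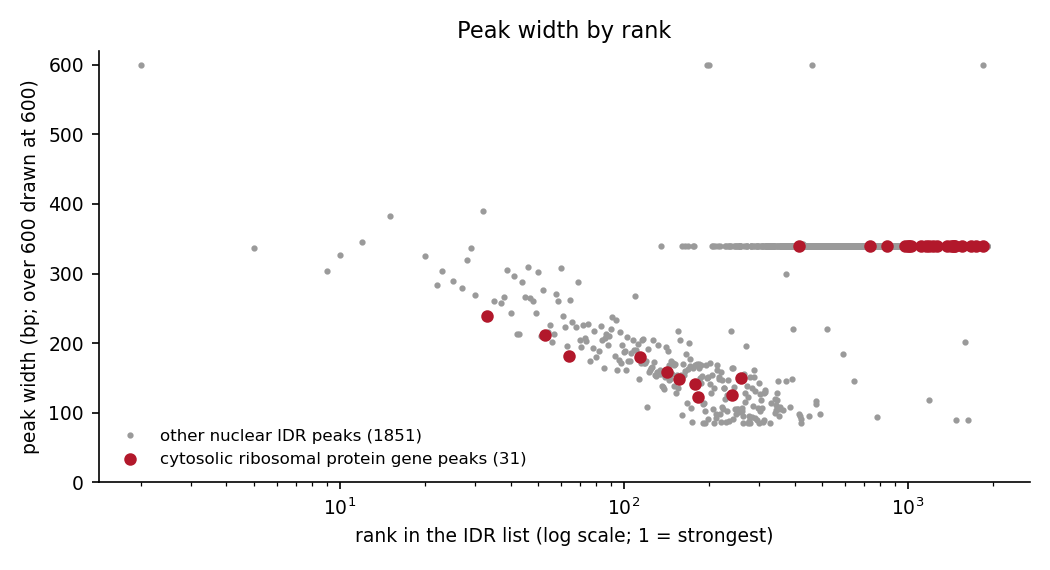
Width (y axis, bp, widths over 600 drawn at 600) against rank in the IDR list (x axis, log scale) for the 31 cytosolic ribosomal protein gene peaks (large points) and the other 1851 IDR peaks on nuclear chromosomes (small points). The 10 strongest peaks of the set are 122 to 239 bp wide and fall among other narrow peaks of similar rank, and the other 21 sit at the fixed width of 340 bp.

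Ranks of the individual peaks repeated between replicates about as often as those of IDR peaks in general. Each peak was matched to the strongest replicate summit within 100 bp. A match was found in replicate 2 for all 31 peaks and in replicate 1 for 28. The 3 without a match in replicate 1 (9.68%, against 6.44% of all IDR peaks) were those of rpl-41.2, rpl-9 and rpl-43. In replicate 1 a summit lay elsewhere in the window at rpl-9 (rank 3142, at -344 bp) and rpl-43 (rank 3045, at -878 bp), and none lay in that of rpl-41.2.

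Of the 31 peaks, 22 were among the 1910 strongest regions of replicate 1 (71%, against 69.2% of all IDR peaks). In replicate 2 the number was 25 (80.6%, against 82%). In both it was 17 (54.8%, against 55.1%). The median percentile of the matched peaks was 97.3 in replicate 1 and 97 in replicate 2, and replicate 2 gave the higher percentile for 19 of 28 (67.9%, against 57% of all IDR peaks). The median difference in percentile, without sign, was 1.58 points for the set and 1.99 for all IDR peaks.

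Among the peaks matched in both replicates, the 4 with the largest difference were those of rpl-22, rpl-5, rpl-6 and rps-15. The rpl-22 peak was at percentile 52.9 in replicate 1 (rank 13668) and 98.2 in replicate 2 (rank 544). The rpl-5 peak was at percentile 73.6 in replicate 1 (rank 7678) and 96.2 in replicate 2 (rank 1146). So replicate 1 placed both peaks far lower than replicate 2 did. Stronger replicate 1 summits lay elsewhere in both windows, downstream of the start. They ranked 4077 at rpl-22 (190 bp) and 4354 at rpl-5 (159 bp). For the peak of rpl-6 replicate 1 gave the higher percentile, at 97.2 against 86.5 in replicate 2. The same held for that of rps-15, whose protein lies near the decoding site, at 98.9 and 90.

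Within the IDR list the ranks of the set were spread unevenly. The median rank of its 31 peaks was 1013, against 956 for all IDR peaks, and 13 of the 31 (41.9%) were in the stronger 955. At the very top, 10 of the 31 peaks (32.3%) had rank 259 or better, against 100 of the other 818 promoter peaks (12.2%), although that bound was chosen on the set, as the rank of the weakest of its 10 strongest peaks. Among the 250 strongest pooled regions, a bound that the set did not choose, 9 of the 81 genes had a summit (11.1%, against 0.497% of the other protein-coding genes). Among the 2000 strongest it was 36 genes (44.4%, against 5.08%). The median rank was thus close to that of the whole list, while the set held both a group of strong peaks and a larger group of weak ones.

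GATA sites, the sequences that factors of the ELT-1 family bind, lay within 50 bp of 4 of the 31 summits (12.9%). Among the other 818 IDR summits in promoter windows the share was 33.9%, and among all IDR summits 39.7%. The 4 were the shared peak of rpl-24.1 and rps-10, the shared peak of rpl-39 and rps-30, and the peaks of rpl-24.2 and rpl-7A, with signals of 36.3, 32.8, 43.5 and 28.3. None of the 10 strongest peaks of the set held a site, whereas 51 of the other 100 promoter peaks of similar rank did (51%).

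By sequence, AGATAA was at none of the 31 summits, against 19.3% of the other promoter summits. AGATAG was at 1 (3.23%, against 9.05%), TGATAA at 2 (6.45%, against 7.82%) and TGATAG at 1 (3.23%, against 4.03%). Base composition also differed. The 101 bases around the summit had a median GC content of 49.5% in the set and 44.6% at the other promoter summits, and GATA sites are rich in A and T.

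Within ranges of GC content, chosen after the data were seen, the share of summits with a site was 2 of 8 (25%) below 45% GC, against 47.4% of other promoter summits. It was 2 of 9 (22.2%) from 45% to under 50%, against 30.1%. At 50% or more it was 0 of 14, against 19 of 217 (8.76%). The share in the set was below that of the others in each range, on small numbers, and the part of base composition in the difference was not tested.

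Over longer windows the counts of AGATAA and TGATAA differed between genes with and without an IDR summit. In the 500 bases upstream of the start, AGATAA was found at 8 of the 34 genes with an IDR summit (23.5%) and 21 of the 47 without one (44.7%), against 31.5% of the other protein-coding genes. TGATAA was found at 12 of the 34 (35.3%) and 26 of the 47 (55.3%), against 43.7%. AGATAG and TGATAG were below the share of the other protein-coding genes in both groups (8.82% and 8.51% against 14.2%, and 14.7% and 17% against 17.6%). Motifs other than GATA sites differed too in these 500 bases. TATAAA was at 41.2% of genes with an IDR summit and 63.8% of those without (54% of the others), and GTCTC at 58.8% and 80.9% (46.9%). GGGCGG went the other way, at 14.7% and 6.38% (10.9%). In the 300 bases from 250 before to 50 after the start, a window that stops short of the median summit, TGATAA was found at 23 of the 81 genes (28.4%, against 30.2% of all protein-coding genes) and AGATAA at 16 (19.8%, against 21.2%). A match is a description of letters and not a bound site, and a window without a match says nothing of the factor.

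Other motifs were searched on both strands in the same windows. None of the 31 summits had TATAAA (4.77% of the other promoter summits did), none had CTGCGTC (9.66%) and none had CACGTG (2.81%). GGGCGG was at 2 (6.45%, against 5.38%), GAGAG at 7 (22.6%, against 36.9%) and TTTTTTT at 3 (9.68%, against 11.9%). GTCTC was at 15 (48.4%, against 34.8%). In the 300-base promoters, TATAAA was at 22 of the 81 genes (27.2%, against 38% of all protein-coding genes) and TTTTTTT at 47 (58%, against 52.2%).

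The 3 7-mers in capitals above were the ones with the largest difference in share among the 2019 distinct 7-mers under the 31 peaks, so their shares at these summits describe the choice. ACACTCG was at 9 of the 31 summits (29%, against 2.08% of the other promoter summits). CGCTACG was at 7 (22.6%, against 0.733%) and ACCGTAG at 7 (22.6%, against 1.1%). At least 1 of them was at 16 of the 31 (51.6%, against 3.67%). At rpl-3, rpl-15, rpl-11.2, rpl-22 and rpl-6 the summit window held both ACACTCG and ACCGTAG.

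The 47 ribosomal protein genes without an IDR summit were not used in that choice. In the 500 bases upstream of their starts, none of which overlaps a summit window of the set, at least 1 of the 7-mers was found at 15 of the 47 (31.9%), against 6.11% of all other protein-coding genes. ACCGTAG was at 10 (21.3%, against 2.51%), ACACTCG at 6 (12.8%, against 2.55%) and CGCTACG at 2 (4.26%, against 1.28%). Over the same 500 bases of the 34 genes with an IDR summit, whose peaks gave the choice, ACCGTAG was at 6 (17.6%). There ACACTCG was at 11 (32.4%) and CGCTACG at 9 (26.5%). The 10 genes without an IDR summit that held ACCGTAG were rpl-14, rpl-17, rpl-25.2, rpl-30, rpl-33, rpl-34, rpl-36.A, rps-9, rps-11 and rps-25. Their pooled ranks ran from 2441 at rpl-33 to 22628 at rpl-30, so the motif was present over a wide range of pooled ranks outside the IDR list.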

How the data were processed

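ELT-1 ChIP-seq peak lists of replicates 1 and 2 were used on the build ce11. Regions were called with a control in either replicate and in the pooled reads, and the IDR list was derived from those calls, per the authors' file lists. Which aligner, caller and IDR threshold were used is not given in the sources used here. The deposited signal values are the authors' own and gave the ranks. All 1910 IDR peaks share the maximum of the authors' −log10 q values (3.83), so these ranked nothing. The deposited coordinates and summit offsets gave widths and positions. Lists on ce10 were not used.

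Summits were assigned to annotated protein-coding starts (Ensembl release 115, windows of 1000 bp upstream to 200 bp downstream) with Python 3.11.15, numpy 2.4.6, pandas 2.3.3 and matplotlib 3.10.9. A summit counted for every gene whose window held it, and distances used the nearest annotated start of the gene and its strongest summit. Replicate summits within 100 bp were matched, and motifs were searched on both strands within 50 bp of summits. Windows were tested on simulated summits, as was whether summits within 100 bp found a match. The GATA search was tested on simulated sequences. No test compared samples or gene sets, because the labels give 1 group. Whether the biological replicates came from separate cultures is not stated.

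The set and the gene lists beside it were chosen with earlier results of these data known. Genes named with full values were, by a fixed rule, the 10 with the highest signal, the stalk genes, the 4 whose replicate percentiles differ most, the 4 farthest summits, the narrowest peaks, those with a GATA site, and the 3 on either side of the edge of the IDR list. The 4 widest peaks could not be picked, because 21 share a width of 340 bp. Genes named for their neighbours, copies, 7-mers or ranks in 1 replicate were chosen after their values were seen.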

Additional observations from a re-analysis of the deposited data

How the results depend on the processing

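Of 30 alternative values, 20 stayed close to those reported and 10 moved. With each summit given to the nearest start at any distance and no window, 22 of the 81 genes had one (27.2%, against 7.72% of all protein-coding genes). With only the stronger 955 peaks of the IDR list, 13 genes did (16%, against 2.39%), their median distance was -270 bp, their median width 180 bp, and 1 peak had a GATA site. With the strongest regions of 1 replicate in place of the IDR list, the count was 27 to 31, the median distance -282 to -270 bp and the median width 336 to 344 bp. In the whole replicate lists, 28 peaks were matched in both replicates in place of 17. Matching within 50 bp put the median percentile in replicate 2 at 97.2. A GATA site lay within 25 bp of 2 summits and within 100 bp of 7, below the share of the other promoter summits at each width (20% and 49.3%). Windows of 500 bp upstream to 100 bp downstream and of 2000 to 500 bp gave 33 and 36 genes. Counting shared peaks once gave 31, an alternative chosen after seeing the data. No paired analysis was possible because there is 1 group. Read depth is unknown, so the depth behind a missing summit cannot be stated.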
